A study of Mus musculus with 30 samples.

Results

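Interferon-stimulated genes are genes that cells switch on when interferons reach them. Their chromatin was followed here through 35 genes, from Isg15 to Ly6e. Members were the accessible regions (peaks) of a deposited table of 69316 mouse mm10 peaks in 26 libraries whose nearest protein-coding gene body, within 100 kb, is a gene of this list. The rule found 118 peaks at 32 genes. Ifit3, Oasl1 and Mx1 had none, and RefSeq lists Mx1 of this mouse strain as a transcribed pseudogene. The rule used position only, and every one of the 118 peaks was tested, since no filter on low values was applied. Ly6e had 14 peaks, Samd9l 9 and Usp18 7, while Isg15, Ifit1, Oas1a, Bst2, Xaf1, Ifi44 and Ifi35 had 1 each.

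Interferons bind receptors that signal through the kinases JAK1, JAK2 and TYK2 to STAT and IRF transcription factors. Complexes of STAT proteins with IRF9 bind the interferon-stimulated response element (ISRE), and STAT dimers bind the interferon-gamma activated site (GAS). The genes they switch on sense viral nucleic acid, block viral replication, or coat and break pathogen-containing vacuoles, and T cells keep many of them ready at a low level. The assay measures open chromatin, not transcription, so none of the values below is an RNA level.

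ATAC-seq inserts adapters into open chromatin with a transposase, and omniATAC-seq is a variant with other lysis and wash conditions. The study addressed what Foxp3 and BATF, transcription factors of regulatory T cells (Treg), do to chromatin. All cells were freshly sorted from lymph nodes and spleen, and the 26 libraries form 13 groups of 2. By ATAC-seq, on the C57BL6/J strain, there were Treg (CD4+hCD2+ cells of Foxp3-IRES-hCD2 mice, here WT Treg), the same cells with Batf-/- (BATFKO Treg) and conventional CD4+hCD2- cells (Tconv). Central Treg (cTreg, CCR7hi CD44lo) and effector Treg (eTreg, CCR7lo) were gates within the hCD2+ cells, and Tnaive and Teff the same gates within the hCD2- cells. By omniATAC-seq there were Foxp3R397W Treg, which carry a point mutant of Foxp3, and a WT control, both sorted as CD4+hCD2+GFP- cells of mice that also carry a Foxp3-IRES-GFP allele. The other omniATAC-seq libraries are Treg lacking both factors (Foxp3KO-IRES-hCD2 with Batf-/-, DKO), sorted as CD4+hCD2+ cells that were CD45.2+, CD45.1- and positive for GFP and Thy1.1, after mock, Foxp3, BATF or both retroviruses (RV). The labels give no strain for DKO cells and no promoter or Cre for any deletion, and the column names mark the DKO libraries as in vivo. Foxp3KO groups were not analysed here.

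Reads in peaks, recovered from the scores, ranged from 3716499 to 25462278 per library, of which 6207 to 43697 fell in the 118 peaks (1479 to 1864 RPM, reads scaled to a common total of reads in peaks). A second deposited table shares 18 of these libraries and gives 12 of them other names. It calls the eTreg and cTreg libraries WT Treg and Foxp3R397W, those named Tnaive and Teff here WT Treg and Foxp3KO, and the R397W control and mutant cTreg and eTreg. The 26-library names are used below. Under them a peak at Foxp3 (chrX:7583922-7584322) scored 316 to 1119 in the 20 Treg-named libraries and 1.28 to 13.6 in the 6 Tconv, Tnaive and Teff libraries, so the libraries that the other table calls WT Treg and this one Tnaive lacked it. A peak at Batf (chr12:85686411-85686811) was at 0 in both BATFKO libraries and at most 12.3 in the 10 libraries labelled Batf-/-, against 265 to 540 in the other 16. Of the member peaks, 16 were higher in all 14 ATAC-named libraries than in all 12 omniATAC-named libraries (all peaks: 7.04%) and 11 were lower (8.27%), and levels are compared only within a protocol. A library that the tables name differently belongs to the other protocol under its other name, and this was not settled.

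Members were checked for interferon motifs in the RefSeq promoters (GRCm38.p6, the assembly of mm10) that reach from 250 bases before to 50 after the start. Windows were listed for 26 of the 35 genes, 28 windows in all. The ISRE core, GAAANNGAA on either strand, was present in 19 of them (67.9%), against 8.56% of 32851 windows genome-wide. GAS (TTCNNNGAA) was present in 8 (28.6%, against 8.30%), the AP-1 motif TGANTCA, bound by BATF with its partners, in 7 (25%, against 7.81%), and the forkhead motif GTAAACA in 2 (7.14%, against 3.65%). GAS shared bases with an ISRE core in 1 window and the other motifs in none. A match describes letters and not binding. The 150 bases before the start are printed, 5′ to 3′ on the gene's strand, for 8 genes whose start peaks are described below: 7 with an ISRE core, in capitals, and Ifi35, whose window has none.
Isg15 (chr4:156200819-156200968, minus strand): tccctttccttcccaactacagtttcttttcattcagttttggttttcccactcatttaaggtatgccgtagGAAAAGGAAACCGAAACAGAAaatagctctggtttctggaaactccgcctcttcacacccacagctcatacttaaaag
Ifit1 (chr19:34640739-34640888, plus strand): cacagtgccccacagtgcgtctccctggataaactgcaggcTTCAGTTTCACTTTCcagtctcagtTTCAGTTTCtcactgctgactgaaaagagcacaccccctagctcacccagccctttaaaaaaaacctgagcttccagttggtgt
Bst2 (chr8:71537473-71537622, minus strand): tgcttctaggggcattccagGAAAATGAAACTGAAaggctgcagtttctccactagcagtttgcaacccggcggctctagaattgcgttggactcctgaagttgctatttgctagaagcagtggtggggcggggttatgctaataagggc
Oas1a (chr5:120907526-120907675, minus strand): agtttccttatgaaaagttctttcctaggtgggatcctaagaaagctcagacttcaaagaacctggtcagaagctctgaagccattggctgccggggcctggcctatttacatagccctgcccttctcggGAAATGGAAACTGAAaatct
Trim25 (chr11:88999253-88999402, plus strand): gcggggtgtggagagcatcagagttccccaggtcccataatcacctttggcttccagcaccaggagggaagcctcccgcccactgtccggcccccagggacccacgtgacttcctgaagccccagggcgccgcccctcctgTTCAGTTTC
Irgm1 (chr11:48871421-48871570, minus strand): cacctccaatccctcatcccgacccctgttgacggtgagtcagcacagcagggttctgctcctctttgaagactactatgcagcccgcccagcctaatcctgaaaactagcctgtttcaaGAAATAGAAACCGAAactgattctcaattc
Gbp7 (chr3:142530186-142530335, plus strand): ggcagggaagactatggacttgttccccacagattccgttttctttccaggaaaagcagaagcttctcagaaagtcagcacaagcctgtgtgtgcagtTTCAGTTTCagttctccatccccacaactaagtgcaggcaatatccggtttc
Ifi35 (chr11:101448262-101448411, plus strand): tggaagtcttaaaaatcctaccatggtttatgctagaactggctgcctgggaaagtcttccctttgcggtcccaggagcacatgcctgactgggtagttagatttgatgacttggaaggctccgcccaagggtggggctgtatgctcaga
In Isg15, Ifit1, Bst2, Oas1a and Irgm1 the capitals hold more than 1 overlapping or neighbouring core, while Trim25 and Gbp7 have a single core. Start peaks called in any contrast described below numbered 7 of 15 with an ISRE core in the window and 2 of 4 without.

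A start peak was taken for 27 genes: 19 overlapped the RefSeq start window, and for 8 genes with no start listed (Oas2, Usp18, Rtp4, Zbp1, Parp9, Parp14, Ifi27l2a and Ly6e) the peak with the highest mean score was used. Oasl2, Ddx58, Dtx3l, Gbp2 and Gbp3 had a listed start but no peak over it. The last choice fixes a high level, so levels at starts are summarised for the 19 only. Their median of the mean scores (normalized reads in the peak) was 240.3, below the 369.4 of all 8390 peaks at a listed start. Ifih1, which encodes the RNA sensor MDA5, scored 583 to 799 in ATAC groups (median 705) and 296 to 405 in omniATAC groups (median 373). Bst2, which encodes tetherin, the protein that holds budding virions on the cell, scored 204 to 285 (median 248) and 517 to 710 (median 609). Both genes had separate ranges in the protocols, with Ifih1 the higher by ATAC and Bst2 the higher by omniATAC.

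Across the ATAC groups the median ratio of the highest to the lowest group mean was 1.60 over the 27 start peaks. These include the 8 chosen by highest score, which are not known to lie at a start. The ratio was 1.34 at Ifit1, which encodes a binder of foreign RNA ends, 1.25 at Rsad2, which encodes viperin, and 1.27 at Bst2. It was larger at Isg15 (2.05), Gbp5 (2.03), Xaf1 (2.09), Ifi44 (3.14) and Oas1a (7.78), the last at low scores. The lowest start peaks were those of Oas2, Ifi44 and Oas1a, with means of 32.5, 14.9 and 9.26 over the 26 libraries. For Oas2, which has no listed start, this is its highest peak. OAS proteins make the oligoadenylates that activate RNase L. Oas1a scored 0 to 12.2 in ATAC groups and 7.77 to 23.0 in omniATAC groups. The member peaks with the highest means were not all at listed starts: a peak 260 bases into Gbp3 had a mean of 636, and a peak 1847 bases into Oas3 had 561.9 and reached 1488 in a mock DKO library.

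**Figure D1:**
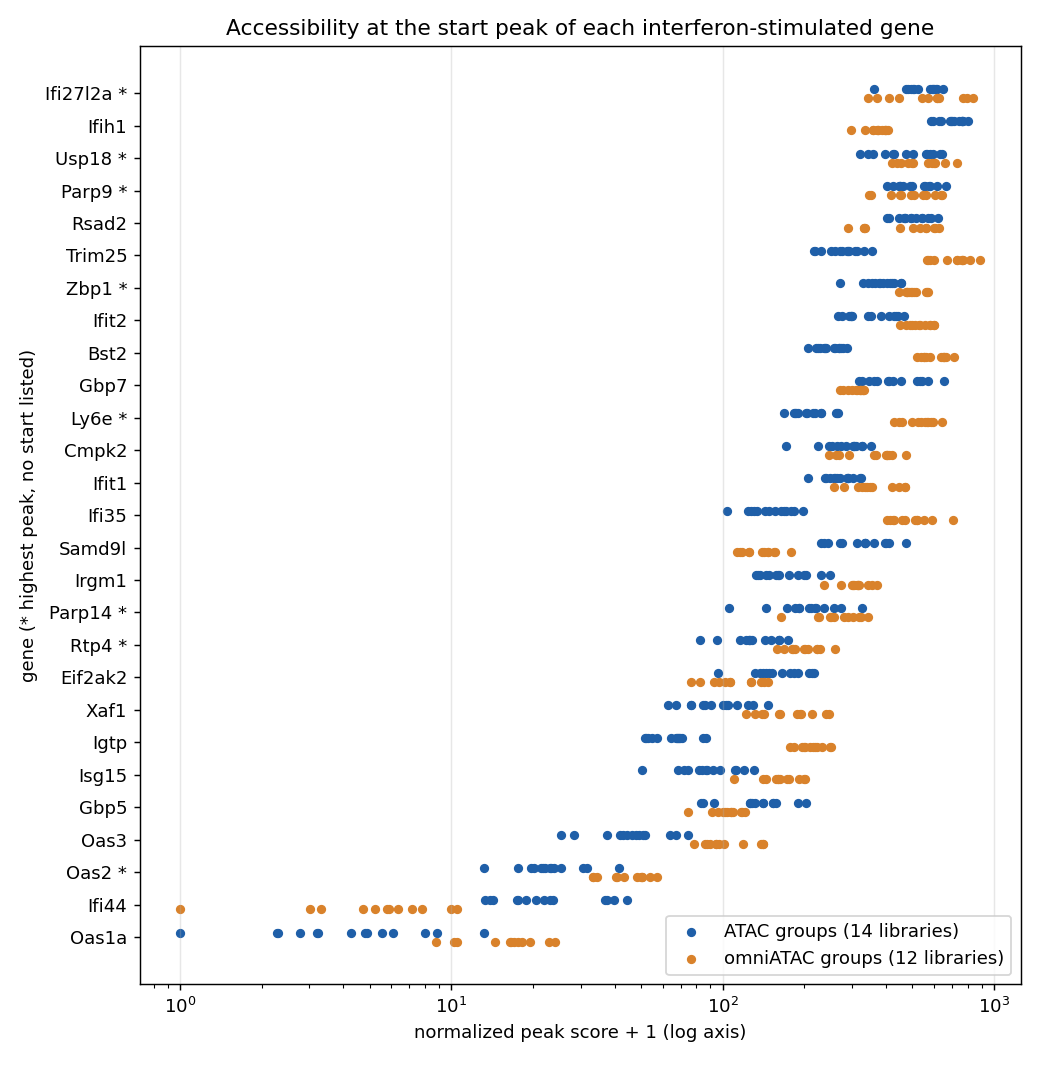
Normalized peak score plus 1 (log axis) at the start peak of each of 27 interferon-stimulated genes, 1 point per library, blue for the 14 ATAC libraries and orange for the 12 omniATAC libraries, genes ordered by mean. For 8 of the genes no start is listed and the peak with the highest mean score is shown. Oas1a, Ifi44 and Oas2 lie lowest, and Bst2 and Ifih1 separate by protocol in opposite directions.

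Changes between groups were tested with limma on log2(score + 1) across all 69316 peaks, with Benjamini-Hochberg adjusted p under 0.05 as the call. For low peaks the added 1 makes a change look smaller. Each group has 2 libraries and the labels do not state separate animals, so a p-value reflects the spread of these libraries only, possibly a technical spread. With 2 libraries a group, separate groups at a called peak largely follow from its call. A lack of overlap is therefore given below as a description, and its share over all peaks was not counted. In bulk samples, fewer cells with an open site and less opening per cell cannot be told apart. In any of the 12 contrasts, 59 of the 118 member peaks were called (50%), at 24 of the 32 genes, against 62.2% of all peaks. At start windows 9 of 19 member peaks were called (47.4%, against 33.5% of all peaks at starts), and elsewhere 50 of 99 (50.5%, against 66.2%). Zbp1, Ifit1, Bst2, Rsad2, Xaf1, Parp14, Ifi44 and Ifi27l2a had no call, and Ly6e had the most, with 11 of its 14 peaks.

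**Figure D2:**
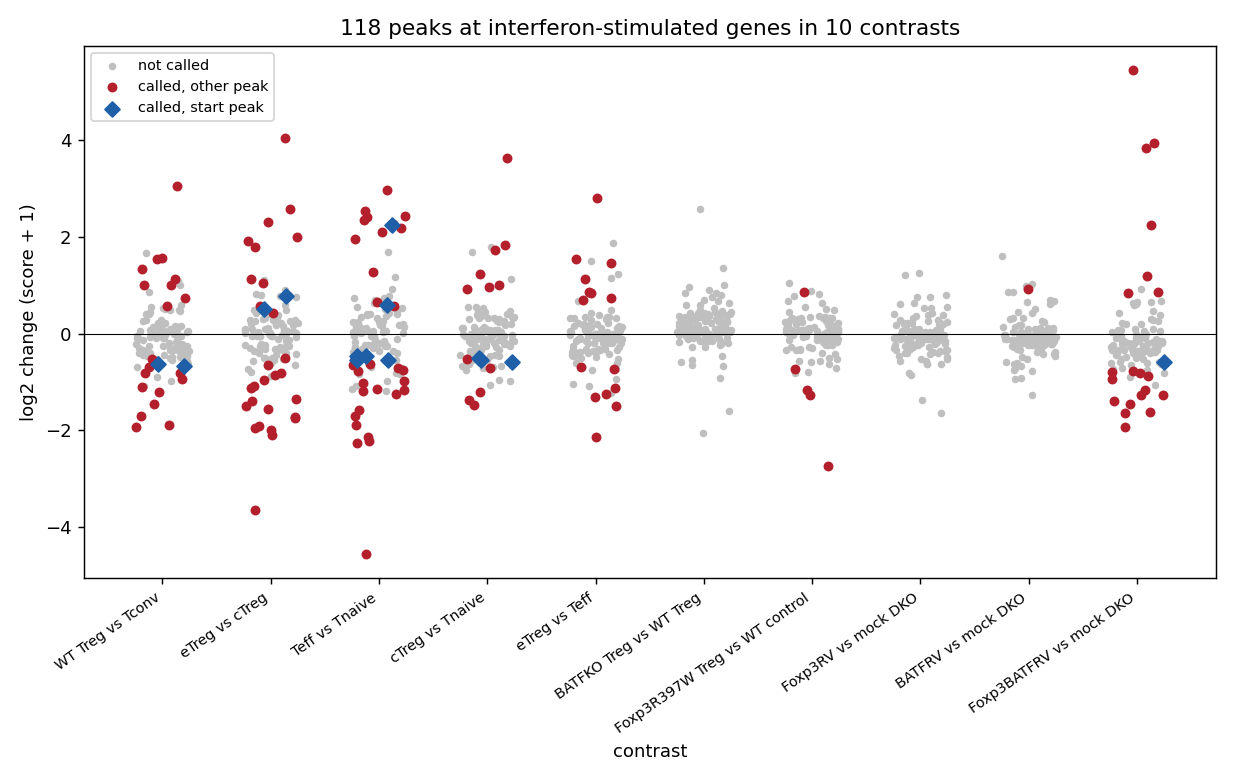
Log2 change (score + 1) of the 118 peaks at interferon-stimulated genes in the 10 contrasts between pairs of groups, grey when not called, red when called and away from the start peak, blue diamonds when called at a start peak. Called peaks lie on both sides of 0 in the wild-type contrasts, none is called for BATFKO or Foxp3RV, and few start peaks are among them.

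WT Treg and Tconv were compared to see whether the lineages differ at these genes. Of the 118 peaks, 9 were higher (all peaks: 10.1%) and 13 lower (9.92%) in WT Treg. An unadjusted p under 0.05 was found at 30 of the 118 and at 21444 of all 69316 peaks. The median change was −0.09, against 0.01 over all peaks. The direction depended on the processing, and quantile scaling gave 15 higher and 15 lower. In the second table, where these 4 libraries have the same names, 17 were higher and 7 lower (all peaks called: 30.1%). By role, the guanylate-binding and immunity-related GTPases, which attack pathogen vacuoles, had 4 higher and 3 lower of 26 peaks, and the OAS family had 3 lower of 10. The count fell in each refit without 1 library, as did the calls over all peaks.

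The largest rise lay downstream of Gbp3, a guanylate-binding protein gene (chr3:142578326-142578726, 18170 bases from the start and 5113 from the body). This peak scored 72.1 and 47.0 in WT Treg and 8.16 and 4.54 in Tconv. Both WT Treg libraries lay above both Tconv libraries (59.5 ± 17.8 against 6.35 ± 2.56, SD, n = 2), and the change was 3.05 (SE 0.33, adjusted p = 5.52e-08). A peak 33980 bases outside Ly6e, which encodes a membrane-anchored surface protein (chr15:74920645-74921045), scored 57.4 and 55.1 against 24.5 and 13.6 and rose by 1.57. Lower in WT Treg were a peak in the Rtp4 locus (chr16:23544420-23544820; 28.1 and 20.4 against 93.1 and 88.6; −1.88) and 1 in Oas2 (chr5:120749681-120750081; 12.2 and 10.2 against 44.1 and 34.1; −1.71). Rtp4 encodes a receptor chaperone induced by interferon. A peak 58388 bases past the start of Samd9l, which encodes an antiviral inhibitor of translation (chr6:3340983-3341383), scored 142 and 113 against 282 and 309 (−1.21). In each of these 5 peaks the groups did not overlap, and the call held with every library left out.

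At starts, Gbp7 was lower in WT Treg. Its start peak scored 359 and 326 in WT Treg and 518 and 534 in Tconv (−0.62, SE 0.15, adjusted p = 0.00264). The start peak of Gbp5, which encodes a guanylate-binding protein that promotes inflammasome assembly, scored 81.9 and 91.9 against 152 and 125 (−0.66). The groups did not overlap at either, but the Gbp5 call was lost without WT Treg 1, WT Treg 2 or Tconv 1, in the second table and when only both groups were fitted. Peaks inside Gbp7 at +3015 and just past it at +20095 were higher in WT Treg (0.57 and 0.73). The former call was lost without WT Treg 1, WT Treg 2 or Tconv 1, and the latter without any of the 4 libraries and with edgeR. The myeloid marker peaks described below held 22 to 30.4 RPM in WT Treg and 15.8 to 19.4 in Tconv, and the Pax5 peaks 19.8 to 22.9 and 9.96 to 10.5. The CD8 and NK peaks held 160 to 165 and 205 to 222, and the plasmacytoid dendritic peaks 115 to 123 and 145 to 159. The part of these cells in the changes was not tested.

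eTreg and cTreg, and Teff and Tnaive, were compared as the effector step of each lineage. In eTreg 12 member peaks were higher (all peaks: 19.7%) and 18 lower (17.4%), with a median of −0.01 against 0.03. An unadjusted p under 0.05 was found at 35 (30799 of all 69316 peaks). In Teff 14 were higher (20.7%) and 23 lower (19.6%), with medians that round to 0.00 and −0.01. At an unadjusted p under 0.05 there were 51 (32917 of all peaks). Against a 1.5-fold change the split was 5 and 9 in eTreg but 11 and 7 in Teff. Under the second table's names, which stand for other libraries, the counts were 6 and 4, with 5.63% and 6.06% of all peaks called. These contrasts share no library. Called in both were 22 peaks, 73.3% of the 30 and 59.5% of the 37, and all 22 went the same way, 9 up and 13 down. Over all peaks the shares were 70.9% and 65.1%, and 198 peaks went opposite ways. The changes had r = 0.81 across the 118 peaks and 0.79 across all, as a description of peaks that are not independent.

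The deepest loss lay 2099 bases beyond the end of Trim25, which encodes a ubiquitin ligase acting in RIG-I signalling (chr11:89022393-89022793, +23190). It scored 12.2 and 9.36 in eTreg and 156 and 138 in cTreg (−3.66, SE 0.27, adjusted p = 1.94e-11). In conventional cells it scored 5.23 and 5.87 in Teff and 152.0 and 153 in Tnaive (−4.55, SE 0.27, adjusted p = 7.61e-14). The effector and the CCR7hi groups were far apart in both lineages, and WT Treg, which were not split by CCR7 (80.7 and 118), and Tconv (91.4 and 111) lay between. The next peak, at +24994, fell by 1.92 and 2.14, while the start peak of Trim25 scored 215 to 354 in these 8 libraries. It was not called in eTreg (−0.30, adjusted p = 0.145) and was −0.46 in Teff, a call lost without Tnaive 1, Tnaive 2 or Teff 1.

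Peaks at other members were also lower in both effector groups. A peak past Igtp, an immunity-related GTPase gene (chr11:58209272-58209672), scored 22.2 and 19.9 in eTreg and 61.3 and 67.2 in cTreg (−1.57), and 11.3 and 10.8 in Teff and 56.2 and 57.0 in Tnaive (−2.26). The Samd9l peak at +58388 fell by 0.86 and 1.58, and a peak 2401 bases outside Usp18, whose product removes ISG15 from proteins and damps interferon receptor signalling, by 1.08 and 1.01. The Ly6e peaks 27978 and 1905 bases outside the body, fell by 1.99 and 1.4 in eTreg and by 2.22 and 1.17 in Teff. At the Oas2 peak eTreg scored 2.22 and 4.68 and cTreg 17.8 and 16.5 (−2.09). Without 1 library each of these calls held. In Teff the Oas2 peak was −1.24, a call lost without Tnaive 1 or Teff 1.

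Peaks in the guanylate-binding protein cluster on chromosome 3 were higher in both effector groups. The peak just past Gbp7 (chr3:142550231-142550631, +20095) scored 189 and 188 in eTreg and 31.1 and 45.2 in cTreg (2.30, SE 0.25, adjusted p = 2.38e-08). It scored 180 and 159 in Teff and 28.1 and 28.5 in Tnaive (2.54, SE 0.25, adjusted p = 2.65e-09). No effector library overlapped a CCR7hi library there. A peak inside Gbp7 at +3015 rose by 1.05 and 1.28, and a peak at +29743 from the Gbp2 start, 12198 bases past the gene, by 2.58 and 2.44. Upstream of Ifih1, a peak at −2584 (chr2:62648639-62649039) scored 88.6 and 93.6 against 25.8 and 25.3 in Treg (1.79) and 99.3 and 110 against 15.3 and 23.3 in conventional cells (2.4). The Ly6e peak at 33980 rose by 1.92 and 2.35. All of these held with every library left out.

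Isg15, which encodes a ubiquitin-like modifier, was called higher at its start in both. It scored 96.4 and 110 in eTreg and 71.1 and 49.6 in cTreg (0.78, SE 0.21, adjusted p = 0.00343), and 129 and 118 in Teff and 80.5 and 82.9 in Tnaive (0.59, SE 0.21, adjusted p = 0.0239). The groups did not overlap, but the former call was lost without cTreg 2 and the latter without any of the 4 libraries. Oas1a scored 12.2 and 7.83 in Teff and 1.28 and 1.30 in Tnaive (2.24), lost without Teff 1 or with quantile scaling. Lower at their start in Teff were Irgm1 (−0.54, lost without Tnaive 2 or Teff 2) and Ifi35, whose product binds other interferon-induced proteins (−0.54, lost without any of the 4).

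**Figure D3:**
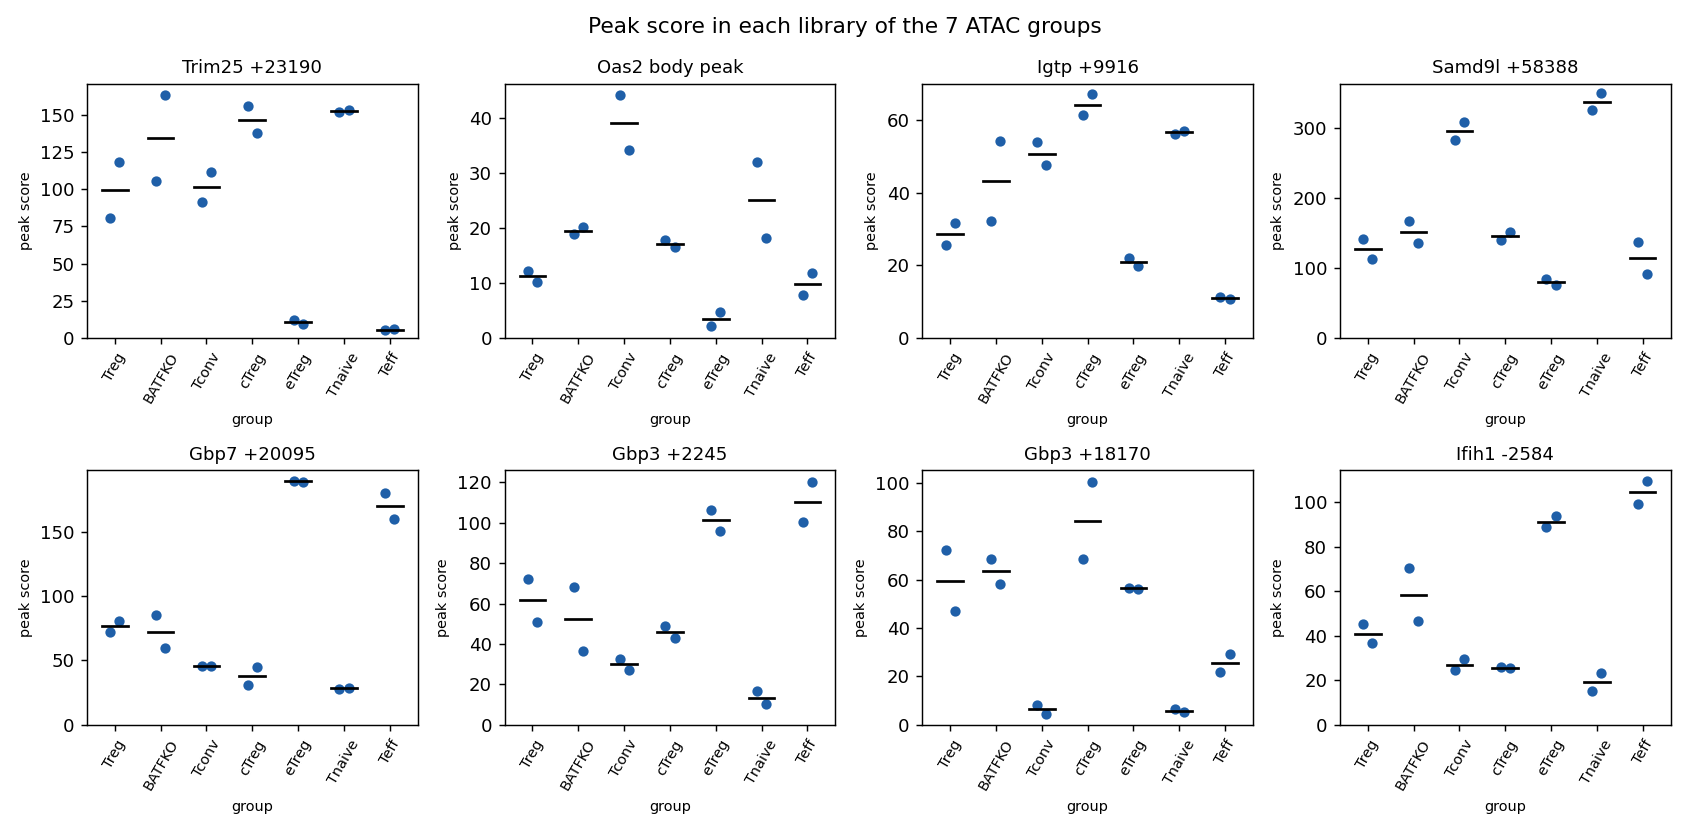
Peak score in each library (points) and group mean (line) for 8 peaks in the 7 ATAC groups, named by gene and distance in bases from the start (the Oas2 peak lies in the gene body). The Trim25 and Igtp peaks are low in eTreg and Teff, the Gbp7, Gbp3 +2245 and Ifih1 peaks are high there, and Gbp3 +18170 is lowest in Tconv and Tnaive.

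Markers of other cells moved with these changes. A myeloid list (Cd14, Lyz2 and Cebpa, 5 peaks; Csf1r has none) held 66.5 to 67.4 RPM in eTreg and 60.2 to 61.0 in Teff, against 16 to 16.6 in cTreg and 9.73 to 13.8 in Tnaive. The 4 peaks at Pax5, a B cell transcription factor gene, held 34.1 to 34.2 and 27.7 to 28.6, against 6.52 to 10.2 and 2.63 to 4.65. A plasmacytoid dendritic list (Siglech, Spib, Ccr9 and the member Bst2) has 12 peaks, of which 9 are at Ccr9, so it mostly reads that gene. It was lower in eTreg (74.5 to 84.0 against 125 to 127) and in Teff (89.2 to 98.0 against 144 to 151). The 18 peaks at Cd8a, Cd8b1, Ncr1 and Klrb1c, a CD8 and NK list, were lower as well, at 161 to 173 in eTreg against 204 to 233 in cTreg, and 165 to 175 in Teff against 247 to 284 in Tnaive. The part of these cells in the member changes was not tested.

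A difference between the effector steps of the lineages was tested as an interaction. Each difference is the log2 change in Treg minus that in conventional cells, so its sign does not give which change was larger. Of the 118 peaks, 0 had a called positive difference (all peaks: 1.18%) and 3 a negative one (2.72%). At an unadjusted p under 0.05 there were 12, against 10872 of all 69316 peaks. The Gbp3 peak at +18170 scored 56.5 and 56.2 in the eTreg libraries, 68.4 and 100.3 in the cTreg libraries, 21.8 and 29.3 in Teff and 6.39 and 5.18 in Tnaive. It was open in Treg of both states, and in conventional cells it was higher in Teff than in Tnaive (1.96; −0.55 in Treg, not called). The difference of changes was −2.51 (SE 0.46, adjusted p = 0.00116) and held with every library left out. A peak inside Gbp3 at +2245 rose in both, by 1.12 in Treg (lost without eTreg 1 or cTreg 2) and 2.97 in conventional cells, a difference of −1.85 that was lost without eTreg 2, cTreg 1, Tnaive 2 or Teff 2. A peak 7223 bases outside Usp18 scored 31.0 and 32.8 in eTreg and 93.3 and 89.3 in cTreg, but 70.5 and 71.4 in Teff and 90.7 and 75.1 in Tnaive. Its difference of −1.27 was lost without any of the 8 libraries other than Tnaive 1. The count of 3 fell in most refits without 1 library, and in each of these fewer of all peaks were called too. Under the second table's names, which stand for other libraries, the count was 0, as it was over all 68597 peaks.

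**Figure D4:**
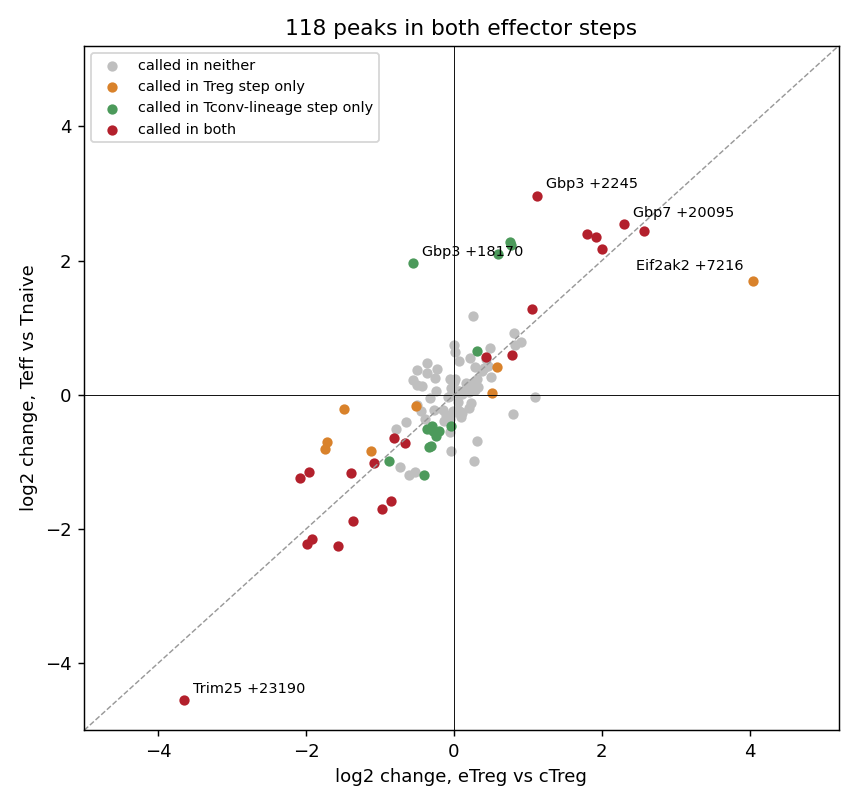
Log2 change in eTreg against cTreg (x axis) and in Teff against Tnaive (y axis) for the 118 peaks, coloured by where they were called, with the line of equal change dashed. The 22 peaks called in both lie at the lower left and the upper right, Trim25 +23190 is lowest, Gbp3 +18170 is above 0 on the y axis and below it on the x axis, and Eif2ak2 +7216 lies farthest right.

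cTreg and Tnaive, both CCR7hi, differed at 7 higher (all peaks: 8.8%) and 8 lower peaks (7.82%), with a median of −0.05 against −0.03. At an unadjusted p under 0.05 there were 25 (18629 of all 69316 peaks). Of the marker lists above, the myeloid and Pax5 peaks were higher in cTreg and the plasmacytoid dendritic and the CD8 and NK peaks lower, and their part was not tested. With edgeR on recovered reads the split was 9 and 6. Under the second table's names, which stand for other libraries, no member peak was called, and 5 of all 68597 peaks were (0.0073%). The Gbp3 peaks at +18170 (3.63, SE 0.33, adjusted p = 1.29e-09) and +2245 (48.9 and 43.0 against 16.6 and 10.4; 1.73), the Gbp7 peak at +3015 (236 and 256 against 124 and 127; 0.97) and a Ly6e peak at 28719 (123 and 94.8 against 44.7 and 19.4; 1.83) were higher in cTreg. The Samd9l peak at +58388 was lower (140 and 151 against 326 and 350; −1.21). These groups did not overlap, and the calls held with every library left out. The Gbp7 start was lower as well (423 and 409 against 570 and 654; −0.55), lost without cTreg 2 or Tnaive 2. The count fell in each refit without 1 library, and so did the calls over all peaks.

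eTreg and Teff differed at 8 higher (all peaks: 8.4%) and 7 lower peaks (9.07%), with a median of −0.07 against 0.04. At an unadjusted p under 0.05 there were 25 (19282 of all 69316 peaks). The myeloid and Pax5 peaks were higher in eTreg and the plasmacytoid dendritic peaks lower, at the values above, and their part was not tested. A further Gbp7 peak, at +15293, scored 26.6 and 21.1 in eTreg and 89.7 and 127 in Teff (−2.13, SE 0.47, adjusted p = 0.00146), with no overlap. The Usp18 peak at 7223 was lower in eTreg by 1.13 and the Ly6e peak at 28719 (48.7 and 49.2 against 15.7 and 16.6) higher by 1.54. These 3 held with every library left out. A peak inside Eif2ak2, which encodes the RNA-activated kinase PKR (chr17:78875156-78875556, +7216), scored 70.9 and 56.2 in eTreg and 5.23 and 12.7 in Teff (2.79), a call lost without eTreg 1 or Teff 1. Upstream of Oas3 at −1491 eTreg scored 13.3 and 28.1 and Teff 61.0 and 52.8 (−1.50), lost without eTreg 1. No start peak was called. The count fell in each refit without 1 library, as did the calls over all peaks. Fitting only both groups gave 25, with 19384 of all peaks called against 12106 in the main fit. Under the second table's names, which stand for other libraries, the count was 0, and 4 of all 68597 peaks were called.

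To see which sites need BATF, Treg without it were set against WT Treg. No member peak was called, neither higher (all peaks: 0.062%) nor lower (1.43%) by limma. An unadjusted p under 0.05 was found at 14 of the 118 and at 5829 of all 69316 peaks. edgeR on recovered reads called 2, and 1 was called without WT Treg 2. The median change was 0.12, against 0.03 over all peaks, and 82 of the 118 changes were above 0 (69.5%, against 53.7% of all peaks). The myeloid peaks held 16.2 to 16.9 RPM in BATFKO against 22 to 30.4 in WT Treg and the Pax5 peaks 13.8 to 16.6 against 19.8 to 22.9. The plasmacytoid dendritic peaks held 128 to 134 against 115 to 123, and the CD8 and NK peaks 181 to 199 against 160 to 165. Their part was not tested. The Eif2ak2 peak at +7216 scored 2.21 and 5.05 in BATFKO and 18.3 and 16.3 in WT Treg. The groups did not overlap, but the change of −2.05 missed the call (SE 0.71, adjusted p = 0.215). The recovered reads were 8 against 31 (WT to BATFKO ratio 5.6, 95% exact interval 2.52 to 14.1, counting error only). A Gbp3 peak at −4763 scored 6.09 and 6.31 against 15.9 and 27.6 (−1.61, adjusted p = 0.231).

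Foxp3R397W Treg were compared with their control. Of the member peaks 1 was higher (all peaks: 0.776%) and 4 lower (1.85%), with a median of 0.04 against 0.03. At an unadjusted p under 0.05 there were 11 (9272 of all 69316 peaks). The Gbp7 peak at +20095 scored 28.1 and 37.4 in the mutant and 81.8 and 78.2 in the control (−1.28, SE 0.25, adjusted p = 0.00428). The Eif2ak2 peak at +7216 scored 2.81 and 1.06 against 17.4 and 18.1 (−2.74), Gbp3 at +2245 15.8 and 15.9 against 35.5 and 38.1 (−1.17), and Gbp7 at +3015 131 and 101 against 212 and 174 (−0.74). Higher was the Usp18 peak at 7223 (86.1 and 68.8 against 43.5 and 40.1; 0.87). None of the 5 overlapped between groups, which largely follows from their calls. The Gbp7 call at +20095 was lost without control a or R397W 1, and the other 4 without any single library. Each of these refits leaves 1 library in a group, and each called fewer of all peaks as well. With edgeR the split was 3 and 5. Under the second table's names it was 18 and 12, with 41.3% of all peaks called. Those names stand there for the libraries called cTreg and eTreg here, so that count is not an alternative for R397W. The myeloid peaks held 19.2 to 23.7 RPM in the mutant and 35.4 to 36.0 in the control, the Pax5 peaks 12.6 to 15.3 and 21.8 to 22.9, and the plasmacytoid dendritic peaks 166 to 174 and 154 to 158. Their part was not tested. In the contrast of eTreg with cTreg, which shares no library, all 5 were called the opposite way (r across the 118 peaks −0.61, and −0.65 across all peaks, where 1585 of 1603 shared calls were opposite).

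Each virus was compared with mock virus in DKO Treg to see what returning the factors does. Foxp3RV alone had 10 member peaks at an unadjusted p under 0.05 (9383 of all 69316) and a median of −0.08 against −0.03. It called no member peak, neither higher (all peaks: 1.01%) nor lower (0.814%) by limma or edgeR. Without Foxp3RV 1 the count was 3. BATFRV alone again had 10 at an unadjusted p under 0.05 (8711 of all peaks), with a median of −0.11 against −0.04. It gave 1 higher (3.2%) and 0 lower peaks (0.291%). The 1 peak was that 33980 bases outside Ly6e (109 and 137 against 63.3 and 64.5; 0.93, adjusted p = 0.0468), lost without any of the 4 libraries and with quantile scaling. Without BATFRV 1 the count was 2, and without mock 2 or BATFRV 2 it was 0.

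Both viruses together gave 7 higher (all peaks: 12.9%) and 14 lower peaks (10.5%). At an unadjusted p under 0.05 there were 33 (22992 of all 69316 peaks). The median change was −0.24, against −0.04 over all peaks, and 30 of the 118 changes were above 0 (25.4%, against 46.9% of all peaks). With edgeR the split was 6 and 22, and without mock 2 it was 6 and 7. The Eif2ak2 peak at +7216 scored 115 and 99.0 with both viruses, 1.05 and 1.96 with mock, 0 and 1.53 with Foxp3RV and 3.71 and 0 with BATFRV. Only the libraries with both viruses had more than a few reads. They held 204 reads against 3 with mock (ratio 70.6, 95% exact interval 23.8 to 345), 1 with Foxp3RV (170, 30.2 to 6744) and 3 with BATFRV (66.3, 22.4 to 324), counting error only. The change against mock was 5.45 (SE 0.71, adjusted p = 8.72e-07).

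For the departure of the double virus from the sum of the single viruses, 14 member peaks had an unadjusted p under 0.05 (9205 of all 69316). The departure was called negative at 0 (all peaks: 0.506%) and positive at 1 (0.586%), the same Eif2ak2 peak. The value there was 6.26 (SE 1.0, adjusted p = 0.00297). This fitted value depends on the pseudocount, since 2 of the single-virus libraries were at 0. The call held with every library left out and was lost with edgeR and when only the 4 groups were fitted. The count of 1 was 4 without Foxp3RV 1 and 3 without Foxp3BATFRV 1. The same peak scored 70.9 and 56.2 in eTreg and 6.22 and 1.10 in cTreg (4.04, SE 0.71, adjusted p = 3.41e-05; 112 against 8 reads, ratio 16.2, 7.94 to 38.4). Of the 7 ATAC groups eTreg was highest and WT Treg next (18.3 and 16.3), and the other 5 lay at 12.7 or below.

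A second Eif2ak2 peak at +8495 scored 27.2 and 33.4 with both viruses and 3.16 and 0 with mock (3.93; 57 against 3 reads, ratio 19.7, 95% exact interval 6.42 to 98.5). The Gbp3 peak at −4763, between Gbp7 and Gbp3 (chr3:142555081-142555481), scored 63.1 and 88.7 against 8.43 and 1.96 (3.84, SE 0.56, adjusted p = 5.54e-06). With BATFRV alone it scored 19.8 and 11.5 (1.61, adjusted p = 0.138). In the 7 ATAC groups no library exceeded 27.6, a level of the other protocol that is not compared with these. A Ly6e peak 2664 bases outside the body scored 74.8 and 66.8 against 12.7 and 15.6 (2.25), and that at 33980 161 and 136 against 63.3 and 64.5 (1.20). All 4 held with every library left out, and at each the libraries with both viruses lay above those with mock.

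Lower with both viruses were a peak inside Ifit2, whose product binds RNA (chr19:34562502-34562902, +11614), at 8.74 and 8.06 against 31.6 and 38.1 (−1.93, SE 0.33, adjusted p = 5.76e-05), and Ly6e peaks at 27978 (−1.63) and 1905 (−1.46). The Usp18 peak at 2401 scored 54.4 and 56.4 against 115 and 156 (−1.26), and the Samd9l peak at +58388 57.3 and 85.2 against 122 and 203 (−1.16). These 5 held with every library left out and their groups did not overlap. At Ifit2 +11614 each single virus left the level near mock (32.3 and 38.4 with Foxp3RV, 28.5 and 34.6 with BATFRV), and the departure of −1.80 missed the call (adjusted p = 0.0533). The Igtp peak was lower by 0.94 (lost without Foxp3BATFRV 1 or mock 2), and the Gbp7 peak at +20095 higher by 0.86 (lost without mock 1 or Foxp3BATFRV 2). No peak over a listed start was called. The highest Usp18 peak, 1528 bases outside the body, was lower by 0.59 (lost without mock 2 or Foxp3BATFRV 2).

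**Figure D5:**
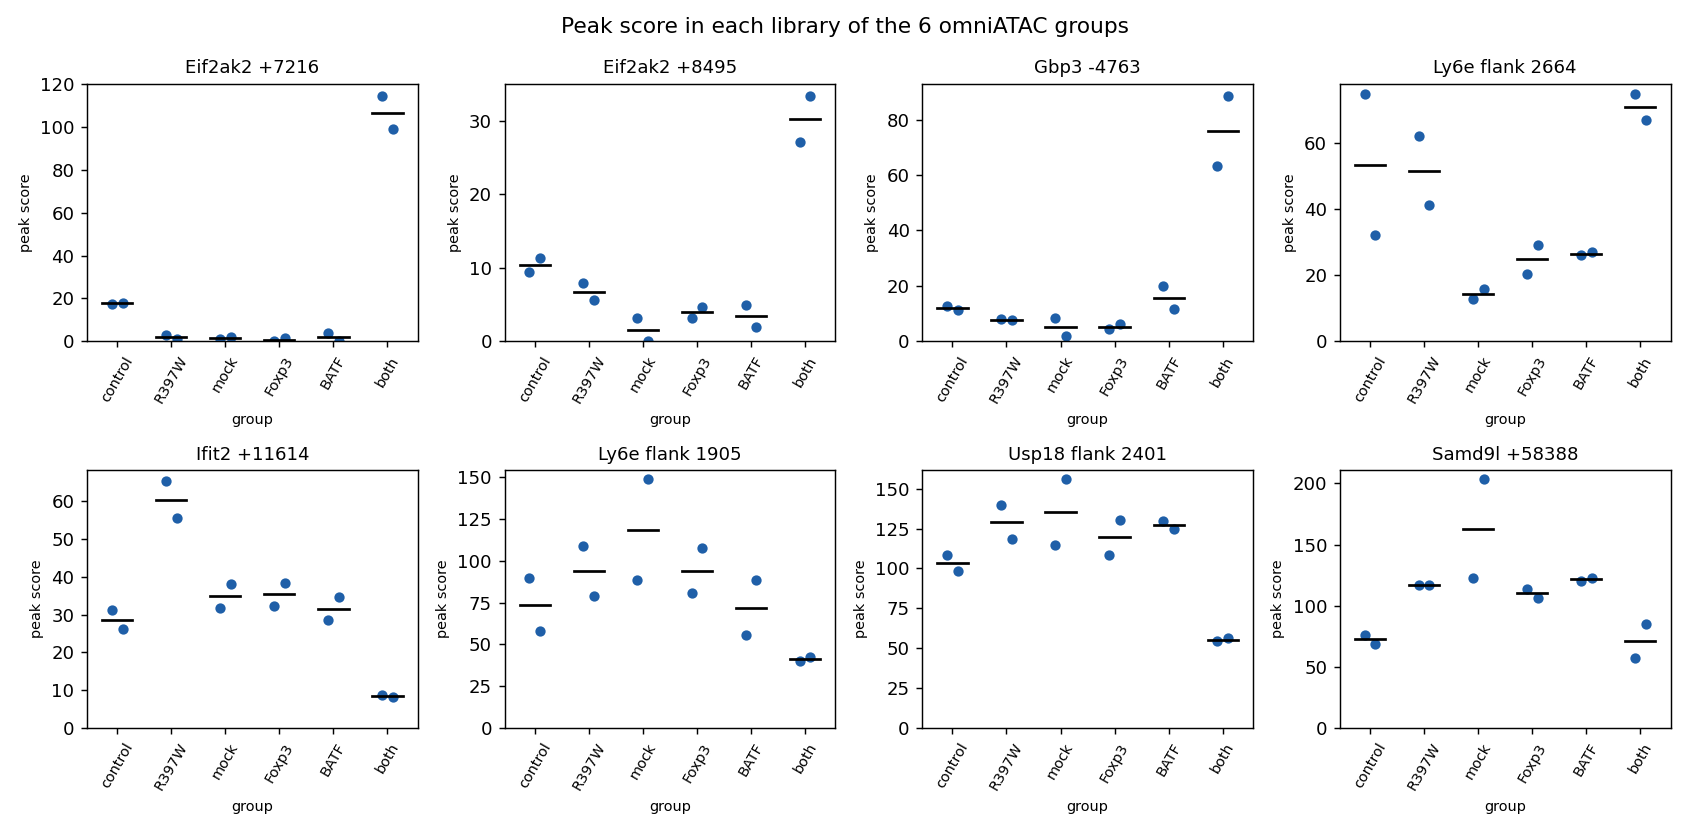
Peak score in each library (points) and group mean (line) for 8 peaks in the 6 omniATAC groups, with the DKO groups named by their virus; flank marks bases outside the gene body. Eif2ak2 and Gbp3 −4763 are highest with both viruses, and the Ifit2, Ly6e 1905 and Usp18 peaks are lowest with both viruses.

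The double-virus contrast shares no library with the effector steps. Of its 21 calls 13 were also called in eTreg against cTreg (61.9%, and 43.3% of the 30), all in the same direction, 4 up and 9 down. Over all peaks the shares were 59.0% and 37.2%, with 624 in opposite directions. With Teff against Tnaive the shared calls were again 13, all in the same direction (61.9%, and 35.1% of the 37; all peaks 54.7% and 31.7%, with 1008 of 9857 in opposite directions). With R397W 3 calls were shared and all were opposite: Eif2ak2 +7216, Gbp7 +20095 and the Usp18 peak at 7223. Over all peaks 1412 of 1421 such calls were opposite. With both viruses the myeloid list held 37.8 to 43.5 RPM against 12.7 to 15 with mock, and the Pax5 peaks 37.6 to 38.7 against 14.9 to 16.9. Their part in the member changes was not tested.

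The Gbp7 peak at +3015 was called in 6 contrasts. Over the 13 group means the member peaks most like it by Pearson correlation of log2 scores were Gbp3 +2245 (r = 0.93), Rsad2 +16901 (0.82), Gbp7 +20095 (0.81), a Parp14 body peak (0.71) and an Ifi27l2a body peak (0.69). These are descriptions over groups that share protocols and depth, with no test. The Gbp3 and Gbp7 peaks lie within 1 cluster on chromosome 3, from 142530126 to 142578726 in the peaks measured here, next to Gbp5 and Gbp2. The start peaks of Gbp7 and of the neighbouring Gbp5 were lower in WT Treg. The Gbp7 peaks at +3015 and +20095 and the Gbp3 peak at +18170 were higher, so the called peaks did not all go the same way. Single libraries decided the calls at the Gbp5 start and at both of these Gbp7 peaks, as given above.

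Of 13 peaks at Parp9, Dtx3l and Parp14, which encode ADP-ribosylation proteins of the interferon response, 0 were called in WT Treg against Tconv, 1 lower in eTreg and 1 lower with both viruses. Among 21 peaks at other antiviral effectors (Bst2, Rsad2, Cmpk2, Samd9l, Rtp4 and Xaf1), 1 was higher and 3 lower in WT Treg against Tconv, 3 were lower in cTreg against Tnaive, 2 with both viruses, 1 in eTreg against cTreg and 1 in Teff against Tnaive. Higher and lower shares of all peaks were 10.1% and 9.92% in WT Treg, 19.7% and 17.4% in eTreg, and 20.7% and 19.6% in Teff. They were 8.8% and 7.82% in cTreg against Tnaive, and 12.9% and 10.5% with both viruses. Samd9l, with 8 calls at 3 of its 9 peaks, had calls in 5 contrasts. Of all peaks, 62.2% were called in any of the 12 contrasts. Ddx58, which encodes RIG-I, had 2 peaks. That at +682 was lower in WT Treg than Tconv (197 and 184 against 273 and 275; −0.52), a call lost without any of the 4 libraries and in the second table. Cmpk2, which encodes a mitochondrial nucleotide kinase, had 1 call, a peak 63937 bases from its start that was higher in WT Treg (47.7 and 26.5 against 9.80 and 13.6; 1.54, lost without WT Treg 1, Tconv 1 or Tconv 2).

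The genes upstream of the members, and 27 other interferon-stimulated genes, were read out from 322 further peaks. Higher and lower peaks made up 7.14% and 9.32% in WT Treg, 12.1% and 20.8% in eTreg, and 18.3% and 19.9% in Teff. They made up 7.45% and 4.97% in cTreg against Tnaive, 4.66% and 9.94% in eTreg against Teff, and 9.01% and 18.3% with both viruses. The shares of all peaks in the same contrasts, given above, are the ones to read these against: in eTreg 19.7% and 17.4%, and with both viruses 12.9% and 10.5%. Higher and lower peaks were 2 (0.62%, all peaks 0.062%) and 3 (0.93%, all peaks 1.43%) in BATFKO. In R397W they were 0 (all peaks 0.776%) and 4 (1.24%, all peaks 1.85%). With Foxp3RV they were 1 (0.31%, all peaks 1.01%) and 1 (0.31%, all peaks 0.814%). With BATFRV they were 9 (2.80%, all peaks 3.2%) and 0 (all peaks 0.291%). Of 81 peaks at receptors and kinases 7 were higher (8.64%) and 22 lower (27.2%) in eTreg, and 6 (7.41%) and 27 (33.3%) with both viruses. The 119 peaks at other interferon-stimulated genes had 7 higher (5.88%) and 28 lower (23.5%) in eTreg, and 9 (7.56%) and 31 (26.1%) in Teff, where all peaks had 20.7% and 19.6%.

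A peak inside Jak2 (chr19:29271155-29271555) had means of 371 ± 44.9 in WT Treg and 42.6 ± 7.19 in Tconv (3.10, SE 0.21, adjusted p = 1.67e-11). It was 280 ± 46.6 in cTreg, 602 ± 63.6 in eTreg, 16.1 ± 1.07 in Tnaive and 332 ± 60 in Teff, a difference of effector steps of −3.17. At the Gbp3 peak at +18170 Tnaive was likewise the lowest of these 4 groups and lay below Teff. Upstream of Ifnar2, a chain of the type I interferon receptor, a peak at −6032 was 74.1 ± 4.79 in BATFKO and 185 ± 2.29 in WT Treg (−1.31, SE 0.21, adjusted p = 0.000167). A peak inside Nlrc5, the activator of class I antigen presentation genes (chr8:94458594-94458994), fell by 1.98 in BATFKO and rose by 1.85 with BATFRV and 1.90 with both viruses, calls that held with every library left out.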

How the data were processed

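Open chromatin was profiled in 26 libraries, 2 for each of 13 groups, with ATAC-seq for 7 groups and omniATAC-seq for 6. Per the submitters' processing notes, DiffBind (3.0.15, 3.4.11), edgeR (3.36.0, 3.38.4), MACS2 2.2.7.1, Bowtie2 2.4.1 and the build mm10 were used, and the role of each is not given in the sources used here. The deposited values are a normalized signal (score) per peak and library. Every value came out as whole reads (100% within 0.02 reads), and recovered reads per library ranged from 3716499 to 25462278. Intervals on reads cover counting error only.

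Tests used limma 3.58.1 in R 4.3.3 on log2(score + 1), with 1 fit over all groups (13 residual degrees of freedom), no filter on low scores and Benjamini-Hochberg adjusted p under 0.05 over all 69316 peaks. edgeR 4.0.16 on recovered reads was an alternative. It called 18 member peaks in WT Treg against Tconv, 28 in eTreg against cTreg, 45 in Teff against Tnaive, 15 in cTreg against Tnaive, 15 in eTreg against Teff and 28 with both viruses. The other alternatives were a pseudocount of 5, quantile scaling, a test against a 1.5-fold change, a filter at the 20th percentile of mean score, peaks within 20 kb, only the groups compared, the second table of 116 member peaks, a replicate block and each library left out. The procedure was tested on simulated data.

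The members and lists were chosen with earlier results of these data known. Peaks named with values were, per contrast, up to 6 called member peaks per direction with the smallest adjusted p (1 per gene), the start peaks, the 6 highest and the 6 lowest by mean score, and peaks of the pathway lists with the smallest p. Others were named after their values were seen, where they followed a named peak into another contrast. Same-numbered libraries share only a number in the labels. Some genes of the lists, and part of the sorting gates, are not reported here.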

Additional observations from a re-analysis of the deposited data

Results flagged for a closer look

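Tests of a difference between effects singled out 4 results. The signed log2 change from the CCR7hi to the effector state was lower in Treg than in conventional cells at 3 peaks. The difference was −2.51 at the Gbp3 peak at +18170, −1.85 at the Gbp3 peak at +2245 and −1.27 at the Usp18 peak 7223 bases outside the body. At the Eif2ak2 peak at +7216 the effect of both viruses departed from the sum of the single viruses by 6.26.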

How the results depend on the processing

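Of 150 called results at member peaks, none reversed, 120 kept their call under the alternatives that leave out no library, other than the 1.5-fold test, 52 kept it against a 1.5-fold change and 61 kept it with each library left out. With 2 libraries a group, single libraries decide many calls. Leaving out a library leaves 1 in its group, and in most of these refits fewer of all peaks were called too.

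Against a 1.5-fold change the member peaks called were 4 in WT Treg against Tconv, 14 in eTreg against cTreg, 18 in Teff against Tnaive (11 higher, 7 lower), 3 in cTreg against Tnaive, 3 in eTreg against Teff, 1 for the difference of effector steps, 0 for R397W, 0 for BATFRV and 8 with both viruses. Under the second table's names, which stand for other libraries, they were 6 in eTreg against cTreg (all peaks called: 5.63%) and 4 in Teff against Tnaive (6.06%). There were 0 in cTreg against Tnaive (0.0073%), 0 in eTreg against Teff (0.0058%) and 0 for the difference of steps (0%). For R397W there were 30 (41.3%). Fitting only the groups compared gave 25 in eTreg against Teff, 9 for R397W and 0 for the departure of both viruses from the sum. BATFKO had 1 with a pseudocount of 5, 3 with quantile scaling and 2 with edgeR. R397W had 8 with edgeR. BATFRV had 0 with quantile scaling and 0 within 20 kb. The departure had 2 with a pseudocount of 5, 0 above the 20th percentile of mean score and 0 with edgeR. The cause of these moves was not tested, other than the fewer samples or peaks that an alternative uses.

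Leaving out each library in turn gave 8 to 17 calls in WT Treg against Tconv, 21 to 25 in eTreg against cTreg, 27 to 29 in Teff against Tnaive, 6 to 10 in cTreg against Tnaive and 7 to 9 in eTreg against Teff. It gave 1 to 3 for the difference of steps, 0 to 1 for BATFKO, 0 to 1 for R397W, 0 to 3 for Foxp3RV, 0 to 2 for BATFRV, 13 to 21 with both viruses and 1 to 4 for the departure.

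With the replicate block the departure had 4 calls, 2 higher and 2 lower, both viruses 23 and cTreg against Tnaive 16, and the other counts were as without it. The correlation of same-numbered libraries' deviations across peaks was 0.04 to 0.08 between the wild-type groups, 0.16 for BATFKO and 0.15 to 0.20 in the DKO contrasts. With only 2 numbers a group, and no label that ties a number to an animal or day, the numbers were not taken as pairs. The R397W control has no replicate numbers, so no block was fitted there.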
